A study of Mus musculus with 40 samples.

Results

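The mitochondrial respiratory chain and ATP synthase were described here in 40 samples of sWAT (subcutaneous white adipose tissue) from mice. Genes were taken by symbol: the Nduf, Sdh, Uqcr, Cox and Atp5 families of the nuclear genome and the protein-coding genes of the mitochondrial genome, without names containing -ps, at a mean of at least 5 CPM (a gene's counts scaled to a common library total) over 40 libraries. Of 34843 symbols, 114 matched, 13 of them were -ps rows, and the other 101 were the members, 88 nuclear and 13 mitochondrial. By complex the nuclear members were 41 of complex I, 4 of complex II, 8 of complex III, 18 of complex IV and 17 of complex V, and the mitochondrial ones were 7, 0, 1, 3 and 2. Complexes were assigned by symbol, with Ndufa4 in complex IV and its relative Ndufa4l2 in complex I. Cox7a2l, an assembly or regulatory protein, was counted in complex IV, and 3 members are pseudogenes by RefSeq. No symbol fell below the threshold. The members nearest to it were Cox4i2 at 6.24 CPM, Cox6b2 at 7.51 and Ndufa11b at 7.74.

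The 5 groups of 8 samples were mice on ND, mice on HFD, mice on HFD treated with semaglutide, mice on HFD treated with tirzepatide, and mice of a dietary intervention that went from HFD to ND (the diet switch). ND and HFD are read here as normal and high-fat diet. Semaglutide is a peptide agonist of the GLP-1 receptor, and tirzepatide activates the GLP-1 and GIP receptors. The labels give no strain, sex, age, dose or treatment time, and do not state what the diet-switch mice received before the switch, although the series title places a dietary intervention after incretin treatment. They do not say whether the samples of a group are separate animals, so a p-value here measures only how these samples scatter, which may be technical.

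The respiratory chain passes electrons from NADH through complex I, or from succinate through complex II, to ubiquinone, then through complex III and cytochrome c to complex IV and oxygen, and complex V uses the resulting proton gradient to make ATP. Complex II is encoded in the nucleus alone, while the other complexes combine nuclear subunits with a small core set made inside the organelle from mitochondrial DNA. In fat tissue the chain is dense in brown and beige adipocytes, and white adipocytes hold fewer mitochondria.

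Total counts ran from 2115471 to 7445548 per library, and 15807 genes, all 101 members among them, were tested. Skeletal muscle genes (14 listed) summed to 140 to 4981 CPM in ND and 80.1 to 1188 in HFD. They reached 505 at most in the semaglutide group, from 69.4, ran from 134 to 3523 in the tirzepatide group and from 112 to 4392 after the switch. Mb was at 0 in 39 of the 40 libraries and Tnnc2 in 24, while Acta1, Myh4 and Ckm had counts in all. The mean log2 CPM of the 14 genes lay above 5 in 9 libraries, called muscle-high below: diet switch 1, 3 and 6, ND 6 and 8, and tirzepatide 1, 4, 5 and 7. Results that rest on them, or on libraries 3, 4 and 7 of the diet switch, which were picked out after the data were seen, are given with and without them. Adipoq, the adipocyte hormone adiponectin, lay between 1218 and 3138 CPM and Plin1, which coats the lipid droplet, between 1085 and 2863 over the 40 libraries. Brown and beige adipocyte genes (9 in the table) summed to 70.3 to 343 CPM over the 40 libraries, and Ucp1, the uncoupling protein that defines these cells, was at 0 in 14. In bulk tissue, fewer cells of a type and less RNA per cell cannot be told apart.

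Promoters are shown for the nuclear members with the smallest adjusted p in each direction in tirzepatide against HFD, 3 lower (Atp5j, Ndufb1, Cox7c) and 3 higher (Atp5h, Ndufs6, Sdhb). Only the lower calls were more frequent there than among all genes. They are RefSeq windows of 250 bases before to 50 after the start in GRCm38.p6, printed in the direction of transcription. Cox7c lies at chr13:86046746-86047045 on the minus strand, Atp5j has windows at chr16:84835576-84835875 and chr16:84834927-84835226 on the minus strand, and Ndufb1 lies at chr12:101975689-101975988 on the minus strand. Sdhb lies at chr4:140961021-140961320 on the plus strand, Ndufs6 at chr13:73328433-73328732 on the minus strand and Atp5h at chr11:115419870-115420169 on the minus strand. Capitals mark matches, on either strand, to GCGC repeated after any pair of bases (the palindrome of NRF1, nuclear respiratory factor), CCGGAAG (ETS factors, among them GABPA, also called NRF2), AAGGTCA (ERR and other nuclear receptors) and AAGATGGCG (YY1).
Cox7c: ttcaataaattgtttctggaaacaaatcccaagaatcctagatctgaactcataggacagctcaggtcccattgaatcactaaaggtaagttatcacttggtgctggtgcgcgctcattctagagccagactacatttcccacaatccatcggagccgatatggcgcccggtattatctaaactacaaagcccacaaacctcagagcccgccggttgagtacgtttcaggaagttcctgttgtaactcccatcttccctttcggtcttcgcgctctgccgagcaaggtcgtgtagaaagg
Atp5j, upstream start: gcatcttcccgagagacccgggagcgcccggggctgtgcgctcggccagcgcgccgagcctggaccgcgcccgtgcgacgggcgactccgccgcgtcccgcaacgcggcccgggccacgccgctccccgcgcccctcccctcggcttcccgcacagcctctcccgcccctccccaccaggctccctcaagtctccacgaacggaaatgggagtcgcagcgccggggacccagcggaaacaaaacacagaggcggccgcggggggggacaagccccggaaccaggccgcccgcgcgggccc
Atp5j, downstream start: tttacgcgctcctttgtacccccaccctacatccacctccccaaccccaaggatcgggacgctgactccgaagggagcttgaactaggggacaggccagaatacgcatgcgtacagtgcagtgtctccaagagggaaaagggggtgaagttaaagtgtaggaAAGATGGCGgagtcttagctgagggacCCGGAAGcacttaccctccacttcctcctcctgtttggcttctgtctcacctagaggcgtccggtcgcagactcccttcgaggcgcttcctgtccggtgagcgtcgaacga
Ndufb1: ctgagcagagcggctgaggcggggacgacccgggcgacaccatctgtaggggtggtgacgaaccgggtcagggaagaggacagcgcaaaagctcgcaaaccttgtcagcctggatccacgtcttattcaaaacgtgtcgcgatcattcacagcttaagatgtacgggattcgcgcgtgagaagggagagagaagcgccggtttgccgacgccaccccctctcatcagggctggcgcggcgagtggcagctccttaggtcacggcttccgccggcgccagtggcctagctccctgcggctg
Sdhb: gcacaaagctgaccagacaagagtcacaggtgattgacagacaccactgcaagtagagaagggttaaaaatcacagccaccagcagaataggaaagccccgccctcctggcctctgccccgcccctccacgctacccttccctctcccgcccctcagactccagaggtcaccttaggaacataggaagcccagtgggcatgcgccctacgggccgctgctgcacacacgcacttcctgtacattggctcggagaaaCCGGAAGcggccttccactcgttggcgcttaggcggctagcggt
Ndufs6: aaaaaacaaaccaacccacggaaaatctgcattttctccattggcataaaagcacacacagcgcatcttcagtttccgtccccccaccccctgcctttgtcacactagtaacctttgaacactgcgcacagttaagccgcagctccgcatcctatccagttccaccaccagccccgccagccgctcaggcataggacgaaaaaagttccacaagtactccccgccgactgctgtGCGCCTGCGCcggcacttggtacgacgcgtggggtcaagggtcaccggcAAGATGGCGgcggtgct
Atp5h: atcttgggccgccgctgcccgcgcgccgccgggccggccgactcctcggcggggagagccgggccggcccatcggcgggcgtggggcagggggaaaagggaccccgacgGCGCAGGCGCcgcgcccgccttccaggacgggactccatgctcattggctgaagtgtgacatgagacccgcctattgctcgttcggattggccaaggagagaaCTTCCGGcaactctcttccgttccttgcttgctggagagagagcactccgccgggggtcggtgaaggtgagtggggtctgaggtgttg

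Among these windows the letters of the NRF1 palindrome stand in Ndufs6 and Atp5h, those of the ETS motif in Sdhb, Atp5h and the downstream window of Atp5j, and those of the YY1 motif in Ndufs6 and the same Atp5j window. The windows of Cox7c and Ndufb1 and the upstream one of Atp5j hold none of the letters searched. RefSeq windows were found for 69 of the 88 nuclear members. The palindrome with any middle pair stood in 26.1% of the 69, against 7% of the 27025 genes with a window, and its narrower form with AT in the middle in 7.25% against 1.07%. CCGGAAG stood in 24.6% of the members against 9.93% of all genes, AAGGTCA in 11.6% against 5.38%, and AAGATGGCG in 10.1% against 1.64%. A match is a description of the letters and not a bound site.

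Over all members, nuclear and mitochondrial genes took different orders across the groups. The nuclear score, the mean log2 CPM of the 88 genes, was highest in ND at 6.96 ± 0.202 (SD, n = 8), followed by HFD at 6.86 ± 0.150, the diet switch at 6.69 ± 0.315, semaglutide at 6.68 ± 0.143 and tirzepatide at 6.64 ± 0.142. The mitochondrial score of 13 genes was highest after the switch at 12.16 ± 0.451, followed by ND at 11.89 ± 0.290, HFD at 11.86 ± 0.342, semaglutide at 11.63 ± 0.194 and tirzepatide at 11.54 ± 0.572. All 5 groups overlapped in both scores. Gene by gene, the highest group mean CPM was that of ND for 42 of the 88 nuclear members, HFD for 18, tirzepatide for 14, the switch for 13 and semaglutide for 1. For the mitochondrial members it was that of the switch for 10 of 13 and HFD for 3.

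**Figure D1:**
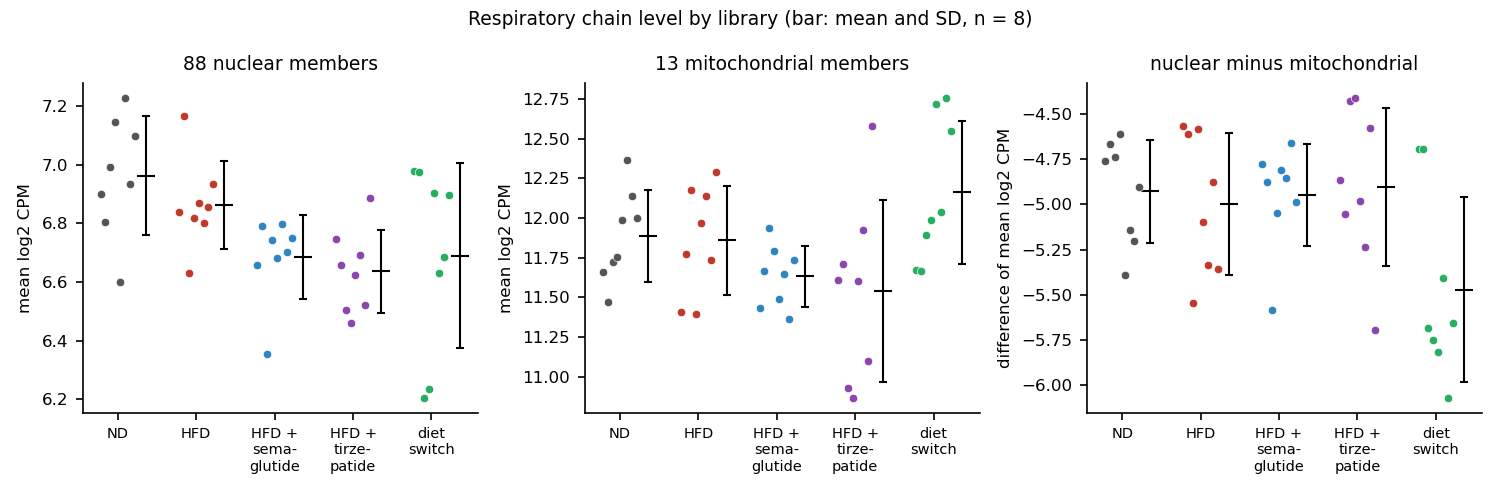
Mean log2 CPM of the 88 nuclear members, of the 13 mitochondrial members, and the difference between them, one point per library, with the mean and SD (n = 8) beside each group. The diet-switch group has the highest mean in the mitochondrial panel and the lowest in the difference panel, with points that overlap the other groups in each.

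The nuclear score minus the mitochondrial one was -4.93 ± 0.286 in ND and -4.996 ± 0.393 in HFD (SD, n = 8). It was -4.95 ± 0.283 in the semaglutide group, -4.91 ± 0.438 in the tirzepatide group and -5.47 ± 0.515 after the switch. The mitochondrial members took 6.37 to 15.2% of counts after the switch (median 9.55%), with the maximum in diet switch 7. They took 5.08 to 8.86% in ND (median 6.61%), 4.77 to 9.14% in HFD (6.24%), 5.21 to 8.54% with semaglutide (6.26%) and 4.16 to 12.2% with tirzepatide (6.12%), where tirzepatide 8 was the highest. The nuclear members together took 1.22 to 2.11% of counts over the 40 libraries.

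Within a group the nuclear members often moved together from library to library. ND 5 held the lowest CPM of its group for 56 of the 88 nuclear members, HFD 3 for 48, semaglutide 3 for 53, and diet switch 3 and 4 for 33 and 28. HFD 2 held the highest for 55, and ND 4 for 40. The mitochondrial members followed in some libraries only. Semaglutide 3 held the highest of its group for 7 of 13 of them and HFD 3 for 4. In other libraries both sets went the same way: ND 6 was highest for 24 nuclear and 12 mitochondrial members, and tirzepatide 8 for 35 and 11. Tirzepatide 4 had the lowest nuclear and the lowest mitochondrial score of its group, at 6.46 and 10.87. The share of counts from 18S ribosomal RNA was 2.86% in semaglutide 3, the lowest of the 40 libraries, 5.41% in HFD 3 and 5.90% in ND 5, each the lowest of its group. Diet switch 3 and 4 went the other way, with 6.13%, the highest of that group, and 5.50%, against a group median of 4.69%. The mean log2 CPM of 5 B cell genes was 7.28 in ND 5 and 6.54 in semaglutide 3, against a median of 2.01 over the 40 libraries. In HFD 3 it was 1.82, and in diet switch 3 and 4 it was 1.30 and 1.61. Semaglutide 1 and 8 reached 7.44 and 6.44 but were lowest for 13 and 4 nuclear members. The mean of 10 adipocyte genes was lowest of the 40 libraries in ND 5, at 9.59. The part of the 18S share or of these markers in the results was not tested.

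On HFD no member was called against ND in the main fit. Of 88 nuclear members 0 were called (edgeR quasi-likelihood test, Benjamini-Hochberg adjusted p under 0.05 over the 15807 genes tested), and of 13 mitochondrial members 0, where 4.50% of all genes tested were called (2.83% higher, 1.68% lower). At an unadjusted p under 0.05 the counts were 11 and 0. Nuclear members had a median log2 fold change of -0.09, with 63 of 88 below 0, mitochondrial members -0.08, and all genes tested -0.04. DESeq2 called 1 nuclear member and limma-voom with quality weights 6, all lower on HFD, and both called 0 mitochondrial members. The mitochondrial rRNA mt-Rnr2, which is no member, was called lower at -0.80 ± 0.18 (SE, n = 8 per group, edgeR adjusted p = 0.00332). It ran from 40069 to 79418 CPM in ND (median 51606) and from 24752 to 40302 in HFD (median 30429), so the groups overlapped by a narrow margin. Of 12 muscle genes tested 2 were called lower on HFD (median log2 fold change -3.21). Their summed CPM had medians of 290 in ND and 158 in HFD, with 4981 and 4951 in ND 6 and ND 8, and their part was not tested.

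Semaglutide moved few members against HFD. One nuclear member (1 of 88) and 1 of 13 mitochondrial members were called, both lower, where 4.15% of all genes were called (1.52% higher, 2.63% lower). Ndufa11, a subunit of the membrane arm of complex I, ran from 120 to 155 CPM in HFD (median 133) and from 67.9 to 107 with semaglutide (median 98.2). The groups did not overlap (the share of all genes without overlap is not given), and the log2 fold change was -0.55 ± 0.13 (SE, n = 8 per group, edgeR adjusted p = 0.00593). It was called with each of the 40 libraries left out in turn (highest adjusted p 0.0181). mt-Nd4l, a complex I core subunit, ran from 633 to 1088 CPM in HFD (median 768) and from 394 to 642 with semaglutide (median 575), where 8 of 8 libraries lay below the HFD median. Its log2 fold change was -0.55 ± 0.16 (edgeR adjusted p = 0.0352), and leaving out HFD 2, 5, 6 or 8 or semaglutide 3, 5 or 7 brought it over the threshold (highest adjusted p 0.0990). Nuclear members had a median log2 fold change of -0.20, with 74 of 88 below 0, and mitochondrial members -0.17, with 12 of 13 below 0, against 0.05 over all genes. The 12 muscle genes tested had 0 calls in this comparison (0 at an unadjusted p under 0.05). Of 6 brown and beige adipocyte genes tested, 3 were called lower and 0 higher, and 2 lay above 0 (up to 2.12). The summed CPM of that list ran from 153 to 251 in HFD and from 70.3 to 132 with semaglutide, without overlap. Most of that sum was Kcnk3, with a mean of 120 CPM of 173 over the 40 libraries. Ucp1 had means of 0.352 CPM in HFD and 1.53 with semaglutide, where semaglutide 8 held 11.4. The part of these cells in the lower medians was not tested. Semaglutide and tirzepatide were compared with the same HFD libraries.

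Against ND the semaglutide group had 15 of 88 nuclear members lower and 0 higher (17.0%, against 2.64% of all genes, 0.905% higher and 1.73% lower). Of 13 mitochondrial members 0 were called, 1 at an unadjusted p under 0.05, and 0 by DESeq2 or limma-voom. The median log2 fold change was -0.31 for nuclear members, -0.28 for mitochondrial ones and 0.03 for all genes, and 13 of 13 mitochondrial members lay below 0. The 15 were spread over 8 of complex I, 1 of complex III, 2 of complex IV and 4 of complex V. The smallest adjusted p was that of Uqcrq, a small subunit of complex III, at -0.67 (edgeR adjusted p = 0.00485). Cox6a1, the complex IV isoform found in most tissues, ran from 946 to 1498 CPM in ND and from 562 to 1059 with semaglutide, with 8 of 8 libraries below the ND median (-0.54 ± 0.15, adjusted p = 0.0415), and lost the call without ND 1, 2, 3, 4, 6 or 8 or semaglutide 1, 3, 5, 6, 7 or 8 (highest adjusted p 0.116). Uqcrq kept its call with each library left out in turn. The count of 15 was 3 without ND 4 or without semaglutide 3, 4 without ND 6 or ND 8, 5 without semaglutide 7 and 8 without ND 3 or semaglutide 1. It was 3 without the muscle-high libraries and 5 without 4 libraries with high B cell genes, where 1.76% and 2.01% of all genes were called. The nuclear median was -0.28 and -0.32 there, close to the -0.31 with all libraries.

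With tirzepatide more nuclear members were lower than higher against HFD. Of the 88, 20 were lower and 6 higher (29.5%, against 20.5% of all genes, 10.7% lower and 9.79% higher), and of 13 mitochondrial members 1 was lower. The share of nuclear members called was above that of all genes on the lower side only. By complex the called ones were 9 lower and 3 higher of 41 in complex I, 1 and 1 of 4 in complex II, 1 and 0 of 8 in complex III, 4 and 1 of 18 in complex IV and 5 and 1 of 17 in complex V. Complexes I, II, IV and V each held called members of both signs. The median log2 fold change was -0.12 for nuclear members, -0.25 for mitochondrial ones and 0.03 for all genes.

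**Figure D2:**
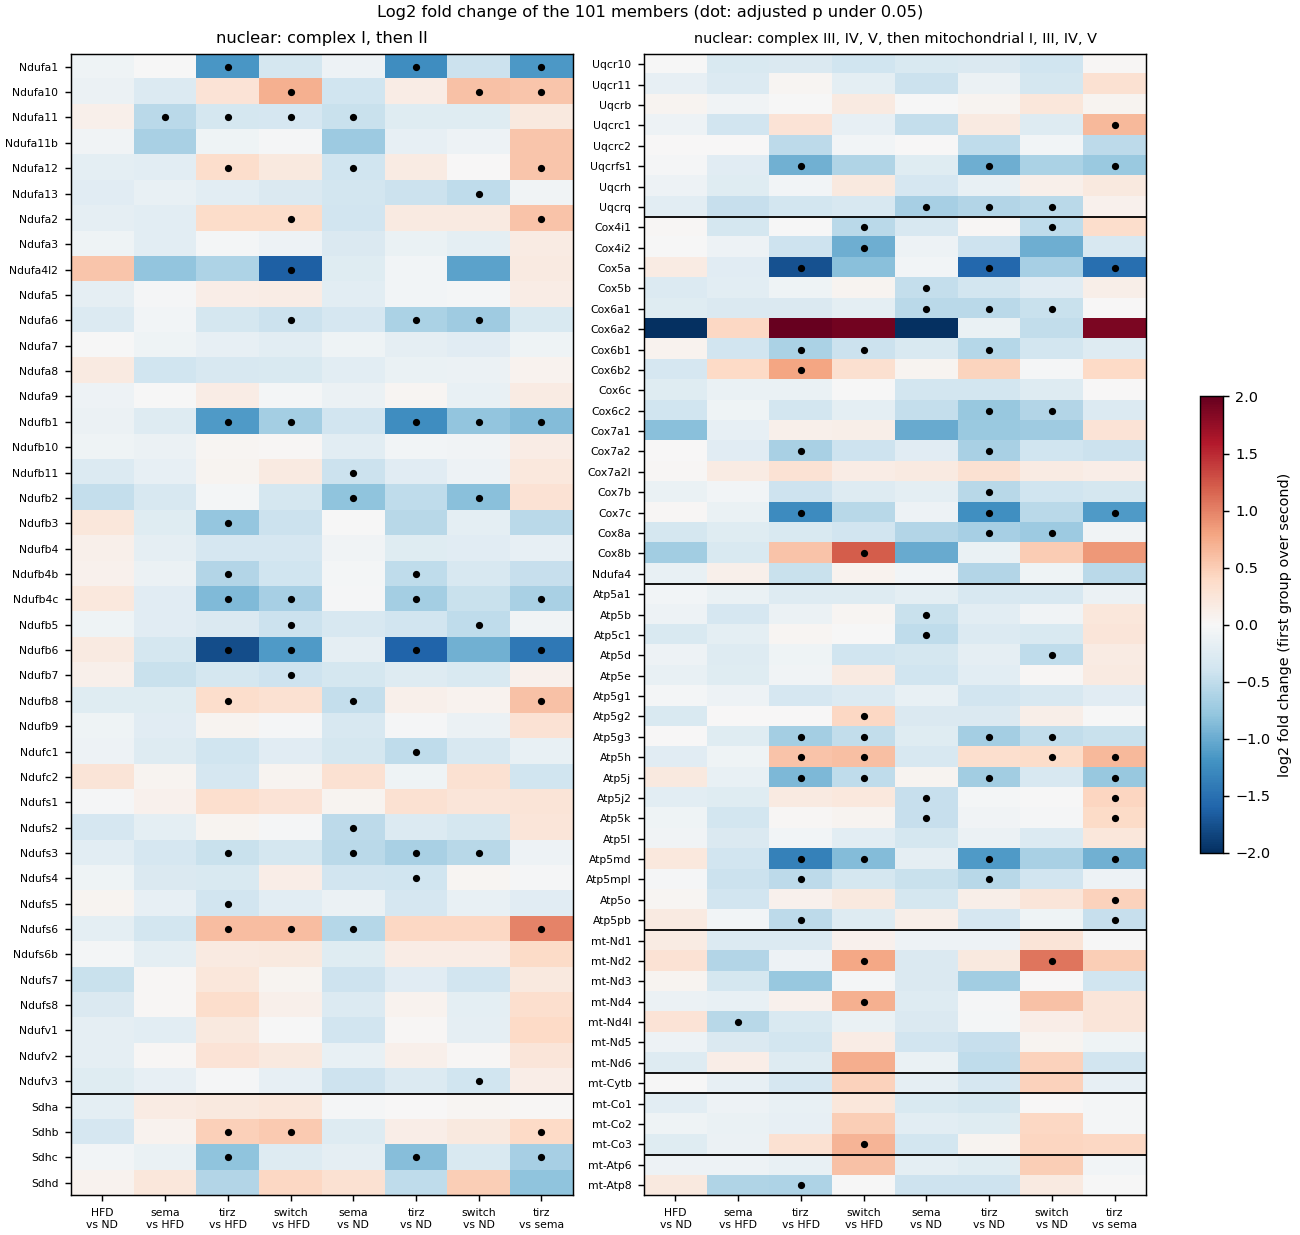
Log2 fold change of all 101 members (rows, by complex) in the 8 comparisons (columns), with black dots where the edgeR adjusted p was under 0.05. Colours stop at 2 in each direction, which Cox6a2 passes, and the first column has 0 dots.

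In complex I the smallest adjusted p was that of Ndufb1, an accessory subunit. It ran from 101 to 240 CPM in HFD (median 157) and from 43.6 to 112 with tirzepatide (median 77.0). All 8 tirzepatide libraries lay below the HFD median and the groups overlapped only through HFD 3, at 101. The log2 fold change was -1.13 ± 0.21 (SE, n = 8 per group, edgeR adjusted p = 0.000160), and it was -1.04 without the muscle-high libraries (adjusted p = 0.00723). Ndufb6, another accessory subunit, fell most among the called members, from a median of 98.5 CPM (48.8 to 159) to 30.3 (8.72 to 49.0), at -1.78 ± 0.43 (adjusted p = 0.00333). Ndufs6, a zinc-binding accessory subunit, rose. It ran from 95.3 to 178 CPM in HFD (median 120) and from 163 to 236 with tirzepatide (median 186), with 1 HFD library, HFD 3, inside the tirzepatide range. Its log2 fold change was 0.62 ± 0.15 (adjusted p = 0.00346).

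In complex II both called members belong to 1 enzyme of 4 subunits and had opposite signs. Sdhc, a membrane anchor, ran from 79.1 to 116 CPM in HFD (median 107) and from 28.6 to 112 with tirzepatide (median 52.4), where only tirzepatide 8 reached the HFD range. The log2 fold change was -0.80 ± 0.19 (edgeR adjusted p = 0.00186), and without the muscle-high libraries -0.53 (adjusted p = 0.0992). Sdhb, the iron-sulfur subunit, ran from 64.2 to 105 CPM in HFD (median 88.4) and from 94.3 to 143 with tirzepatide (median 123), and 8 of 8 tirzepatide libraries lay above the HFD median. It rose by 0.48 ± 0.13 (adjusted p = 0.00786) and by 0.58 without the muscle-high libraries (adjusted p = 0.0128). In complex III, Uqcrfs1, the Rieske iron-sulfur protein, went from a median of 153 CPM (111 to 221) to 74.2 (38.9 to 141), at -0.96 ± 0.24 (adjusted p = 0.00352), and -0.75 without the muscle-high libraries (adjusted p = 0.0547).

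In complex IV, Cox7c, a small structural subunit, ran from 533 to 1216 CPM in HFD (median 761) and from 155 to 509 with tirzepatide (median 342). The groups did not overlap, a case whose share over all genes is not given. The log2 fold change was -1.26 ± 0.26 (SE, n = 8 per group, edgeR adjusted p = 0.000465). The row Cox7c-ps1, a pseudogene with a mean of 656 CPM, moved the same way (-0.91, adjusted p = 0.00143), and reads of the gene and its copy could be split in counting. Cox5a, a nuclear structural subunit, had medians of 109 and 21.0 CPM and a log2 fold change of -1.75 ± 0.51 (adjusted p = 0.0133), which was -1.34 without the muscle-high libraries (adjusted p = 0.118). Cox7a2, the isoform of most tissues, went from a median of 442 CPM (303 to 644) to 270 (215 to 365), at -0.65 ± 0.16 (adjusted p = 0.00346), and -0.49 without the muscle-high libraries (adjusted p = 0.122).

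In complex V, Atp5j, the coupling factor 6 of the stalk, ran from 147 to 246 CPM in HFD (median 190) and from 77.9 to 135 with tirzepatide (median 102), again without overlap. The log2 fold change was -0.89 ± 0.17 (SE, n = 8 per group, edgeR adjusted p = 0.000146). Atp5h, subunit d of the same stalk, moved the other way, from a median of 160 CPM (135 to 250) to 265 (191 to 306), at 0.57 ± 0.13 (adjusted p = 0.00132), with overlap from HFD 3 at 250 CPM and from HFD 8 and tirzepatide 1, at 192 and 191. Atp5md, a small membrane subunit, fell by 1.35 on the log2 scale (adjusted p = 0.000793). Both stalk calls stood without the muscle-high libraries, at -0.77 (adjusted p = 0.0133) for Atp5j and 0.65 (adjusted p = 0.00587) for Atp5h.

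**Figure D3:**
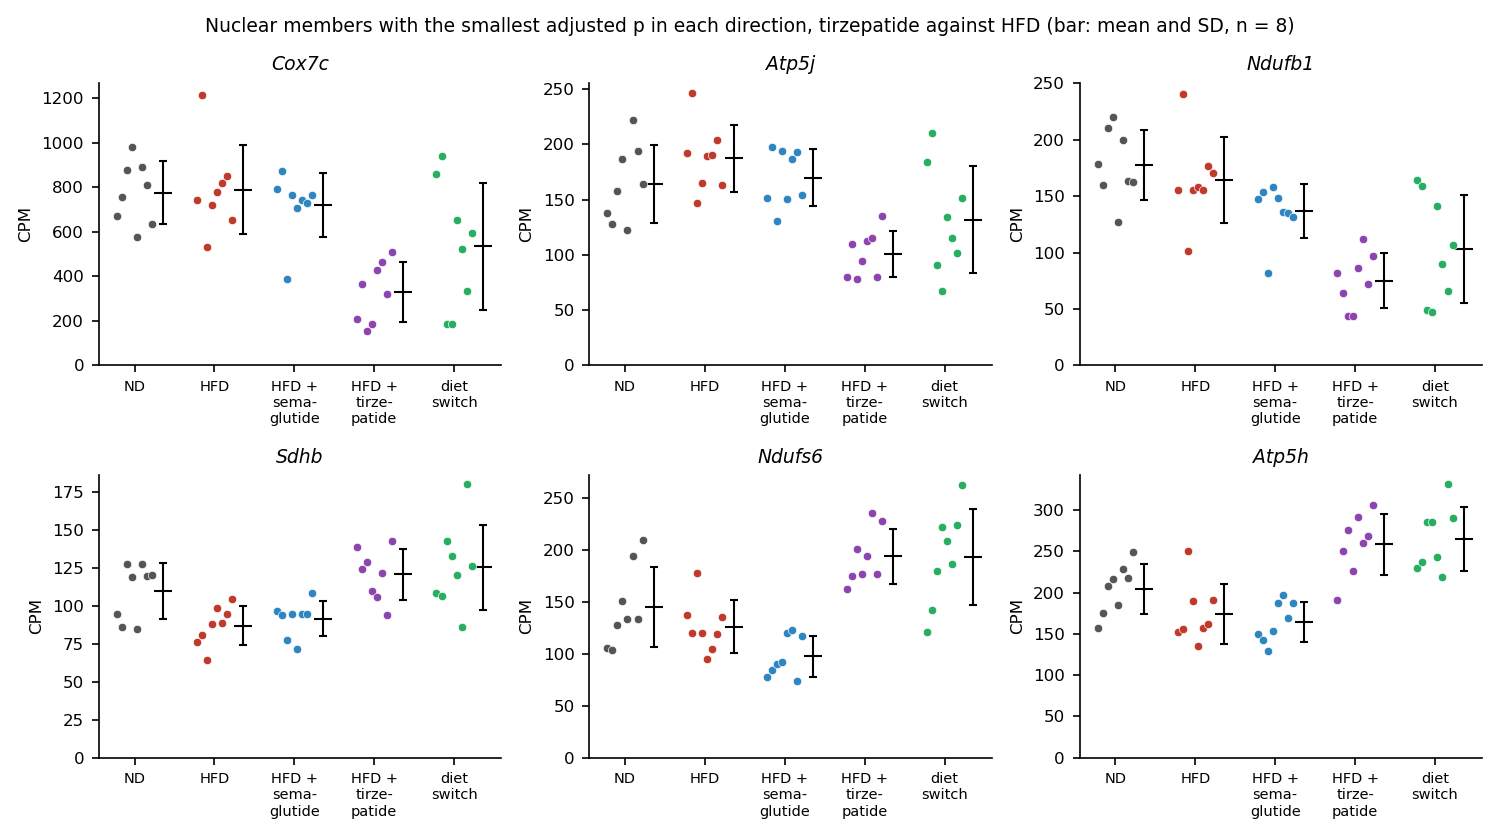
CPM by library of the 3 lower (top row) and 3 higher (bottom row) nuclear members with the smallest adjusted p in tirzepatide against HFD, with the mean and SD (n = 8) beside each group. Cox7c and Atp5j do not overlap between HFD and tirzepatide, and the diet-switch points of the top row are the most spread.

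The only mitochondrial member called was mt-Atp8, a complex V subunit whose coding sequence overlaps that of mt-Atp6. It ran from 531 to 1142 CPM in HFD (median 711) and from 299 to 799 with tirzepatide (median 472), at -0.61 ± 0.19 (SE, n = 8 per group, edgeR adjusted p = 0.0203). Without HFD 8 the adjusted p was 0.0605, without tirzepatide 4 0.0547, and without the muscle-high libraries 0.155. Mitochondrial members differed widely inside the group: tirzepatide 8 held the highest value for 11 of 13, and tirzepatide 4 and 3 the lowest for 8 and 5. Without tirzepatide 8, 3 were called lower, and without the muscle-high libraries, among them tirzepatide 4, 0 were called and the median of the mitochondrial members turned from -0.25 to 0.12.

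Of the 26 nuclear calls, 20 stood whichever library was left out, and the count then ran from 22 to 30. Without the muscle-high libraries, which leave 4 tirzepatide libraries, 14 were called, 10 lower and 4 higher, all among the 26, while the share of all genes called went from 20.5% to 10.7%. Of the 12 muscle genes 3 were called higher with tirzepatide (25%, against 20.5% of all genes), with a median log2 fold change of 2.85 and summed CPM medians of 158 in HFD and 1164 with tirzepatide. Of the 6 brown and beige genes 1 was called higher and 3 lower. Their part was not tested beyond these values. Transcript ends differed between the called sets: over the last 300 bases of the longest transcript in GENCODE M21, GC content had a median of 39.3% in 19 of the lower members with a transcript, 49.2% in the 6 higher ones and 48.4% in 62 not called. Over all protein-coding genes tested the medians were 42.3, 40.7 and 42%. The part of GC content in the result was not tested.

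Against ND, tirzepatide had 24 of 88 nuclear members lower and 0 higher (27.3%, against 10.1% of all genes, 4.30% higher and 5.77% lower). Of 13 mitochondrial members 0 were called, 3 at an unadjusted p under 0.05, 0 by DESeq2 and 4 by limma-voom. Cox7c (-1.23 ± 0.26, edgeR adjusted p = 0.00159), Ndufb1 (-1.24 ± 0.21, adjusted p = 0.000138) and Ndufb6 (-1.61 ± 0.43, adjusted p = 0.0150) did not overlap with ND. The share of all genes without overlap is not given. Atp5h, Ndufs6 and Sdhb, higher than in HFD, were at 0.34, 0.42 and 0.14 against ND and were not called (adjusted p = 0.0820, 0.0709 and 0.551). Without the muscle-high libraries 4 nuclear members were called, 1 higher and 3 lower, while the share of all genes called went from 10.1% to 3.41%. Without tirzepatide 8, 2 mitochondrial members were called lower.

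Tirzepatide and semaglutide are both peptide agonists of the GLP-1 receptor, and tirzepatide also acts on the GIP receptor. The labels give no dose or time for either, so the values stand side by side without matched exposure, and only this 1 pair was compared. Between them 11 nuclear members were higher and 11 lower with tirzepatide (22 of 88, against 10% of all genes, 4.11% higher and 5.92% lower). Of 13 mitochondrial members 0 were called, 1 at an unadjusted p under 0.05, and 0 by DESeq2 or limma-voom. Ndufs6 ran from 73.8 to 123 CPM with semaglutide (median 91.4), below every tirzepatide library, and the log2 fold change was 0.99 ± 0.16 (SE, n = 8 per group, edgeR adjusted p = 0.000126). Ndufa12, Ndufb8 and Ndufa2, accessory subunits of complex I, and Uqcrc1, a core protein of complex III, were also higher without overlap, at 0.56, 0.59, 0.56 and 0.66. They were named after their values were seen, and the share of all genes without overlap is not given. Cox7c was lower with tirzepatide by -1.13 ± 0.26 (adjusted p = 0.00428), Ndufb1 by -0.86 ± 0.21 (adjusted p = 0.00741) and Atp5j by -0.75 ± 0.17 (adjusted p = 0.00348). The count was 14 without tirzepatide 3 or without tirzepatide 4. Without the muscle-high libraries 6 were called, all higher with tirzepatide, while the share of all genes called went from 10% to 2.60%. Cox7c stood at -0.94 there, with an edgeR adjusted p of 0.0761.

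After the diet switch, nuclear members were called about as often as other genes. Against HFD 7 were higher and 14 lower of 88 (23.9%, against 23.8% of all genes, 12.8% higher and 10.9% lower), so the count of nuclear members does not set them apart. Of 13 mitochondrial members 3 were higher and 0 lower (23.1%), a share that is also near that of all genes. The median log2 fold change was -0.16 for nuclear members, 0.46 for mitochondrial ones and 0.03 for all genes, and 10 of 13 mitochondrial members lay above 0.

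Of the higher nuclear members, Atp5h ran from 219 to 332 CPM after the switch (median 265) against 135 to 250 in HFD (median 160), at 0.61 ± 0.13 (SE, n = 8 per group, edgeR adjusted p = 0.000608). It overlapped with HFD through HFD 3 alone, at 250. Ndufs6 rose by 0.61 ± 0.15 (adjusted p = 0.00321) and Sdhb by 0.53 ± 0.13 (adjusted p = 0.00280). Ndufa10, an accessory subunit of complex I, ran from 89.8 to 234 CPM after the switch (median 135) and from 72.8 to 109 in HFD (median 82.1), at 0.71 ± 0.17 (adjusted p = 0.00159). Its 2 highest libraries were diet switch 7 and 3. The lower ones were led by Ndufa4l2, a hypoxia-induced relative of Ndufa4, at -1.63 ± 0.42 (adjusted p = 0.00449), which ran from 0.660 to 17.2 CPM (median 5.62) against 10.5 to 39.4 in HFD (median 19.9). Ndufb1 was at -0.67 ± 0.21 (adjusted p = 0.0163), with the call lost without HFD 2 (0.0521), and Atp5j at -0.51 ± 0.17 (adjusted p = 0.0225), lost without HFD 2 or diet switch 3, 4 or 7 (highest adjusted p 0.0663).

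Most of these calls were lost without diet-switch libraries 3, 4 and 7, whose nuclear scores were 6.21, 6.24 and 6.68 against 6.63 to 6.98 in the other 5. Without them 2 nuclear members were called against HFD, Atp5h at 0.48 (edgeR adjusted p = 0.0303) and Ndufs6 at 0.54 (adjusted p = 0.0482), and 0 were lower, while 6.97% of all genes were called. The nuclear median then went from -0.16 to 0.00. Ndufa10 was at 0.33 (adjusted p = 0.207), Sdhb at 0.33 (adjusted p = 0.137) and Ndufa4l2 at -1.12 (adjusted p = 0.0901). Leaving out 1 library gave 10 nuclear calls without diet switch 3 or HFD 2, 12 without diet switch 4, and 13 without diet switch 7 or HFD 5. Without the muscle-high libraries, which include diet switch 3, 9 were called, while 17.2% of all genes were called.

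Among the mitochondrial members mt-Co3, a core subunit of complex IV, ran from 5895 to 13050 CPM after the switch (median 7823) and from 4287 to 7875 in HFD (median 5555), with 8 of 8 switch libraries above the HFD median. Its log2 fold change was 0.68 ± 0.20 (SE, n = 8 per group, edgeR adjusted p = 0.0111), and it was 0.70 without diet switch 3, 4 and 7 (adjusted p = 0.0472). It was called with each library left out in turn (highest adjusted p 0.0319). mt-Nd4, a proton-pumping subunit of complex I, ran from 10958 to 35921 CPM (median 21401) against 9227 to 20878 (median 12265), at 0.71 ± 0.24 (adjusted p = 0.0236). It lost the call without HFD 1, 2 or 4 or diet switch 5, 7 or 8 (highest adjusted p 0.0776), and without diet switch 3, 4 and 7 it was at 0.61 (adjusted p = 0.147).

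mt-Nd2, another proton-pumping subunit, rested on few libraries. It ran from 6696 to 53169 CPM after the switch (median 15325) and from 8058 to 18651 in HFD (median 9934), and the next value below the maximum of diet switch 7 was 28452. The log2 fold change was 0.78 ± 0.28 (SE, n = 8 per group, edgeR adjusted p = 0.0367), 0.40 without diet switch 7 (adjusted p = 0.272), and -0.08 without diet switch 3, 4 and 7 (adjusted p = 0.893), a change of sign. The call was also lost without HFD 1, 2, 4, 5 or 7 or diet switch 3 or 4. The count of mitochondrial members called was 1 without HFD 1, 2 or 4 or diet switch 7, and 5 without HFD 3, tirzepatide 8, or diet switch 1 or 2. It was 5 without the muscle-high libraries, where the median of the mitochondrial members was 0.66.

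**Figure D4:**
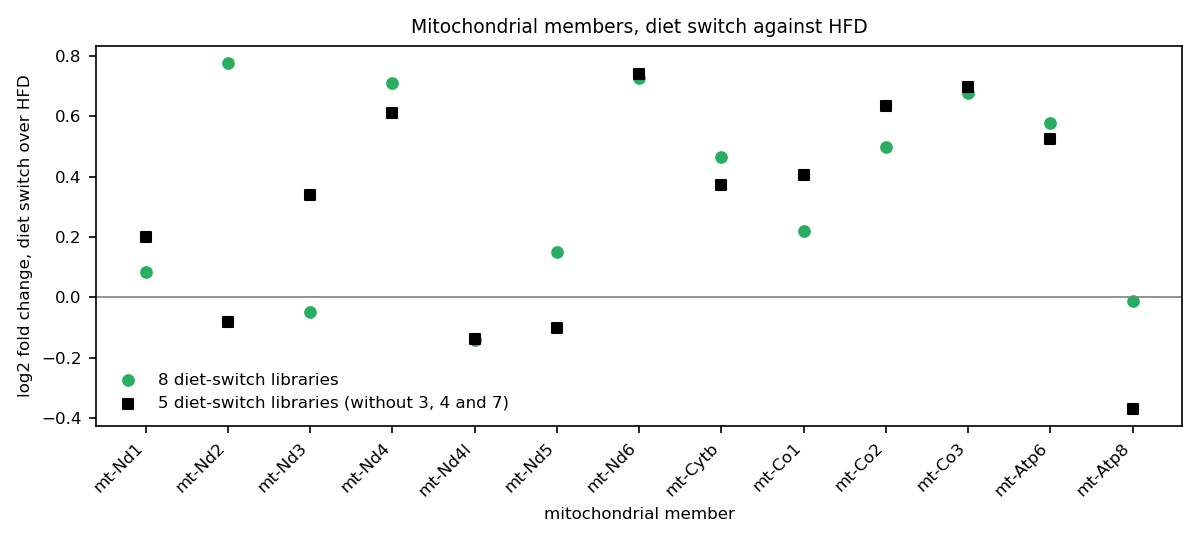
Log2 fold change of the 13 mitochondrial members, diet switch over HFD, with all 8 diet-switch libraries (circles) and without libraries 3, 4 and 7 (squares). mt-Co3 stays near 0.7 in both, and mt-Nd2 moves from 0.78 to -0.08.

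The remaining mitochondrial members were not called against HFD. mt-Atp6 was at 0.58 ± 0.23 (edgeR adjusted p = 0.0593), mt-Nd6 at 0.73 ± 0.30 (0.0676), mt-Co2 at 0.50 (0.159), mt-Cytb, the one mitochondrial subunit of complex III, at 0.46 (0.170), mt-Co1 at 0.22 (0.445), mt-Nd5 at 0.15 (0.643) and mt-Nd1 at 0.08 (0.789). mt-Atp8 was at -0.01 (0.977), mt-Nd3 at -0.05 (0.930) and mt-Nd4l at -0.14 (0.564). The genes lie on 1 circular genome and are transcribed as long precursors, yet their values differed: mt-Nd3 ran from 869 to 4361 CPM after the switch while mt-Nd4 ran from 10958 to 35921. mt-Nd6 is encoded on the opposite strand to the other 12, and the strand setting of the counting is not given in the sources used here, so its reads and those of the opposite strand could be mixed.

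Against ND the switch group had 2 nuclear members higher and 14 lower of 88 (18.2%, against 14.8% of all genes, 7.97% higher and 6.82% lower), and mt-Nd2 higher among the 13 mitochondrial ones (1.07 ± 0.28, edgeR adjusted p = 0.00893). The 13 mitochondrial members all lay above 0 (median 0.42), while 67 of 88 nuclear ones lay below (median -0.24). Cox8a, the complex IV isoform of most tissues, went from 1393 to 2679 CPM in ND (median 2118) to 733 to 1880 (median 1327), at -0.73 ± 0.18 (adjusted p = 0.00595). Without diet switch 3, 4 and 7, 0 nuclear and 0 mitochondrial members were called, 0.680% of all genes were called, and the medians were -0.09 and 0.37. Leaving out 1 library gave 7 nuclear calls without diet switch 3, 9 without ND 4, 10 without diet switch 4 and 30 without diet switch 2. The mitochondrial count was 0 without diet switch 7 and 2 without diet switch 1 or 2.

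Tissue isoforms of complex IV followed the muscle genes in part. Cox6a2, the heart and muscle isoform of subunit 6a, was highest in ND 8 at 74.4 CPM, with 51.9 in diet switch 6, 50.5 in ND 6 and 43.0 in tirzepatide 7, all muscle-high. Its group medians were 2.21 CPM in ND, 2.24 in HFD, 2.41 and 9.76 in the semaglutide and tirzepatide groups, and 3.44 after the switch. It was called in 0 of the 8 comparisons (edgeR adjusted p from 0.104 to 0.952), with SE from 0.90 to 1.06. Cox7a1, its counterpart for subunit 7a, was highest in ND 6 at 65.3 CPM and ND 8 at 39.1, and lay between 5.08 and 24.2 in the libraries of the other 4 groups.

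**Figure D5:**
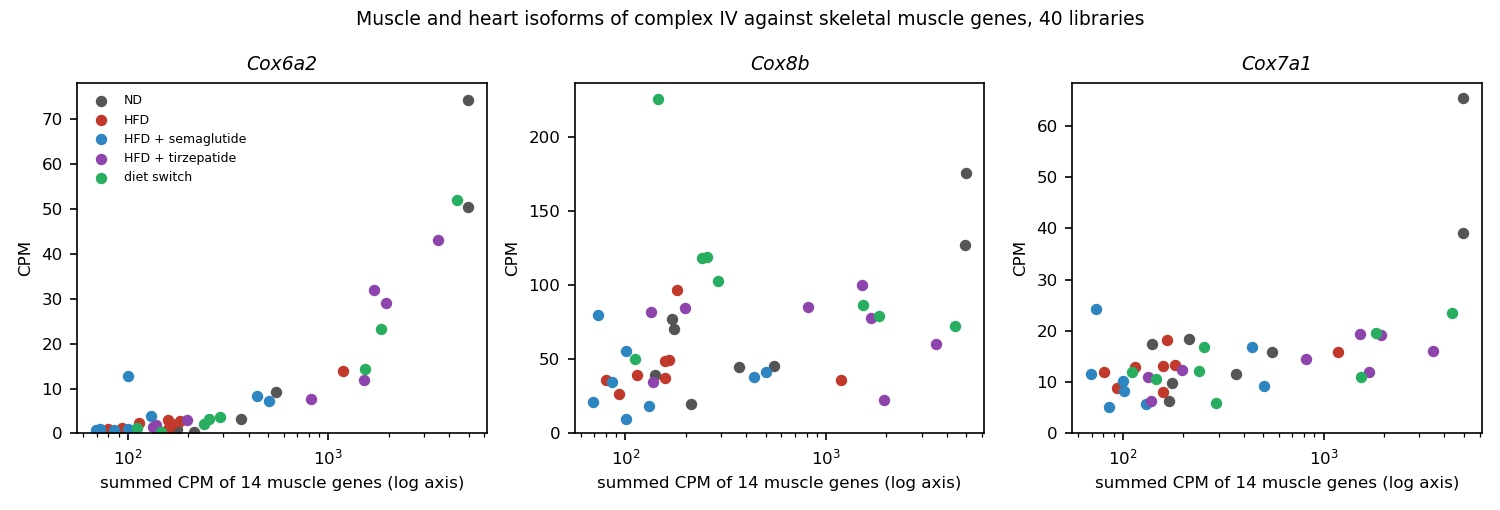
CPM of Cox6a2, Cox8b and Cox7a1 against the summed CPM of 14 skeletal muscle genes (log axis), one point per library, coloured by group. Cox6a2 is highest at the right, up to 74.4 CPM, while the highest Cox8b value, 226 CPM, belongs to diet switch 7 with 146 CPM of muscle genes.

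Cox8b, the isoform of muscle and brown fat, did not follow them in that library. It ran from 49.99 to 226 CPM after the switch (median 94.8) and from 26.3 to 96.8 in HFD (median 38.5), with 8 of 8 switch libraries above the HFD median, at 1.21 ± 0.39 (SE, n = 8 per group, edgeR adjusted p = 0.0216). The highest switch library, number 7, held 146 CPM of muscle genes and 343 CPM of brown and beige genes, the highest such sum of the 40 libraries. Without it the log2 fold change was 0.96 (adjusted p = 0.0746), and without the muscle-high libraries 1.41 (adjusted p = 0.0135). The part of either marker list was not tested further. Cox4i1, the isoform of most tissues, was lower after the switch than in HFD (-0.54 ± 0.18, adjusted p = 0.0273), and Cox4i2, its relative known from lung, was at -0.97 ± 0.35 (adjusted p = 0.0396). Both lost the call without diet switch 3, 4 and 7 (-0.29 and -0.76, adjusted p = 0.399 and 0.212) and without 7 and 10 single libraries, diet switch 3, 6 and 7 and HFD 2 and 5 among them for both.

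Of 14 listed regulators of mitochondrial biogenesis, 5 were higher and 1 lower with tirzepatide against HFD (42.9%, against 20.5% of all genes), and 4 higher and 0 lower after the switch (28.6%, near the 23.8% of all genes). Ppargc1a, the coactivator PGC-1alpha, ran from 2.58 to 8.998 CPM in HFD (median 7.61) and from 5.41 to 26.97 with tirzepatide (median 13.2), at 1.26 ± 0.28 (SE, n = 8 per group, edgeR adjusted p = 0.00133). Ppara, a nuclear receptor of fatty acid oxidation, rose by 1.37 (adjusted p = 0.000455), and Gabpa, the ETS factor named above, by 0.78 (adjusted p = 0.0397). Esrra, the nuclear receptor ERR alpha, was lower at -0.72 ± 0.26 (adjusted p = 0.0456). Nrf1 was at 0.38 (adjusted p = 0.0511) and Tfam, the factor that packages and transcribes mitochondrial DNA, at -0.14 (adjusted p = 0.710). The HFD and tirzepatide ranges of Ppargc1a overlapped. The part of muscle RNA in this was not tested.

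Other lists of the pathway are set beside the 20.5% of all genes called with tirzepatide against HFD and the 23.8% after the switch. Of 81 mitochondrial ribosomal protein genes 5 were higher and 12 lower with tirzepatide (21.0%), and 5 and 9 after the switch (17.3%), near or below those shares. Of 44 assembly factors 2 and 7 (20.5%), and 0 and 2 (4.55%), were called, led by Cox17, a copper chaperone of complex IV, at -1.33 ± 0.31 with tirzepatide (edgeR adjusted p = 0.00240). Of 7 genes of ATP export 1 and 3 (57.1%), and 0 and 3 (42.9%), were called, and Slc25a5, an ADP/ATP carrier of the inner membrane, fell by 1.31 with tirzepatide (adjusted p = 3.18e-05) and by 0.87 after the switch (adjusted p = 0.00333). Cycs, cytochrome c, was called in none of the 8 comparisons, with its smallest adjusted p, 0.121, in diet switch against ND (0.44).

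Gpd2, the glycerol-3-phosphate dehydrogenase that passes electrons to ubiquinone at the inner membrane, fell by 1.36 on HFD against ND (edgeR adjusted p = 3.63e-08) and rose by 1.22 after the switch against HFD (adjusted p = 3.58e-07) and by 0.68 with tirzepatide against HFD (adjusted p = 0.00132). Of the 19 electron carriers and donors, Gpd2 alone was called on HFD against ND (5.26%, against 4.50% of all genes), and 11 lay above 0. Gpd2 was below ND with semaglutide (-0.98, adjusted p = 2.76e-05) and tirzepatide (-0.68, adjusted p = 0.00283). It was not called in semaglutide against HFD (0.39, adjusted p = 0.143) or diet switch against ND (-0.14, adjusted p = 0.567). The mitochondrial rRNA mt-Rnr1 ran from 23697 to 34985 CPM in ND and had medians of 20560 in HFD, 14280 and 13054 in the semaglutide and tirzepatide groups, and 12781 after the switch. Against ND it was at -0.86, -0.98 and -0.98 in the last 3 groups (adjusted p = 0.00410, 0.000522 and 0.000732), while the protein-coding mitochondrial members were at medians of -0.28, -0.25 and 0.42.

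The members Uqcrq, Ndufb6, Cox5a, Atp5md, Ndufa4l2, Ndufa12, Ndufb8, Ndufa2 and Uqcrc1 were named after their values were seen. Several members have close copies. RefSeq names Ndufa11b, Ndufs6b and Cox6c2 as pseudogenes, and Ndufb4b and Ndufb4c are copies of Ndufb4, so their counts and those of the parent genes are uncertain. The nuclear members lie on 19 chromosomes, 3 of them on X, and the mitochondrial genes mt-Atp8 and mt-Atp6, and mt-Nd4l and mt-Nd4, overlap each other.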

How the data were processed

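RNA of sWAT samples was made into 3'-end libraries with the LexoGen QuantSeq kit and sequenced on an Illumina HiSeq, per the labels' protocols, and the submitters' processing notes name build mm10. The sources used here name no aligner, counting tool, strand setting or annotation. What the authors deposited are raw counts per gene symbol, which were used as deposited. A deposited table of normalized values was not used, and 16 of its columns belong to no sample described here.

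Groups followed the sample titles. One edgeR quasi-likelihood fit (version 4.0.16, R 4.3.3, TMM, filterByExpr, robust) held all 40 libraries and gave 8 comparisons over 15807 genes, with Benjamini-Hochberg adjustment and 0.05 as the threshold for a call. A log2 level is log2 CPM with a prior count of 2, and a score is its mean over members. Standard errors are the log2 fold change over the square root of F. limma-voom (3.58.1), DESeq2 (1.42.0), other scalings and filters, a replicate block and left-out libraries were alternatives. On counts simulated for HFD against ND (15543 genes) the fit called 7 of 67 genes changed 1.5-fold, 32 of 67 changed 2-fold and 60 of 66 changed 4-fold, and 1 unchanged gene.

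The members and gene lists were chosen with earlier results of these data known. Named members were all mitochondrial ones, the complex IV isoform pairs, the called nuclear member of smallest adjusted p per complex in the 4 comparisons HFD against ND and each intervention against HFD, and those nearest the 5 CPM threshold. Named genes outside the members were the mitochondrial rRNAs, Ppargc1a, Ppargc1b, Nrf1, Gabpa, Esrra, Tfam, Cycs and Ucp1, and up to 3 called genes per list. Any other gene was named after its values were seen. Overlap between groups is given for named genes, without the share of all genes tested beside it. No libraries of a group were as alike as repeats of 1 library (lowest chi-square per degree of freedom 3.99). The list of citric acid cycle genes is not reported here.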

Additional observations from a re-analysis of the deposited data

Results flagged for a closer look

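Among 175 sets of 8 values checked, 13 had 1 library far from the other 7, where chance gives about 1 set in 20. Semaglutide 3, among the 4 libraries with high B cell genes, accounted for 8 of them. It had a nuclear score of 6.35 (next 6.66), a nuclear minus mitochondrial score of -5.58 and a nuclear share of counts of 1.24%. Its log2 CPM was 9.14 for Cox6a1, 8.00 for Cox7a2, 9.82 for Cox8a, 6.37 for Ndufb1 and 8.61 for Cox7c, each the lowest of the group. In ND, library 5, which also had high B cell genes, was lowest for Cox6a1 at 9.89 and for Cox8a at 10.445. HFD 2 had a nuclear share of 2.09%, above the next at 1.74%, and HFD 4 a Cox6a2 level of 3.84, above the next at 1.79. Tirzepatide 8 had an mt-Nd1 level of 13.47, above the next at 12.56.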

How the results depend on the processing

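Over all alternatives, 12237 fold changes of single named members were compared with the main value: 229 lost the call and 121 gained it. The sign changed in 229, of which 36 were without the muscle-high libraries. In 228 of these the member was called in neither fit, and the other was mt-Nd2 in diet switch against HFD (-0.081 without diet switch 3, 4 and 7). Of the counts of called members 714 stayed within 1.5 times the main value and 102 did not. The causes were not tested.

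In HFD against ND the nuclear count of 0 was 1 with only the 2 groups, without the 4 libraries with high B cell genes (ND 5, semaglutide 1, 3 and 8) and by DESeq2, and 6 by limma-voom. In semaglutide against HFD the nuclear count of 1 was 3 with only the 2 groups, 4 without diet switch 3, 4 and 7, 4 by DESeq2 and 6 by limma-voom, and the mitochondrial count of 1 was 2 with library sizes without mt- and rRNA rows, with only the 2 groups, without the muscle-high libraries, without diet switch 3, 4 and 7, by limma-voom and by DESeq2, and 0 without the B cell libraries. In tirzepatide against HFD the nuclear count of 26 was 14 without the muscle-high libraries, and the mitochondrial count of 1 was 0 there, 2 without diet switch 3, 4 and 7 and by DESeq2, and 4 by limma-voom. In diet switch against HFD the nuclear count of 21 was 13 with no filter, 12 with only the 2 groups, 9 without the muscle-high libraries and 2 without diet switch 3, 4 and 7, and the mitochondrial count of 3 was 5 and 1 in the last 2 settings. In semaglutide against ND the nuclear count of 15 was 2 with no filter, 3 without the muscle-high libraries, 5 without the B cell libraries and 27 by limma-voom. In tirzepatide against ND the nuclear count of 24 was 4 without the muscle-high libraries, and the mitochondrial count of 0 was 4 by limma-voom. In diet switch against ND the nuclear count of 16 was 9 with only the 2 groups, 10 without the muscle-high libraries, 0 without diet switch 3, 4 and 7, and 28 without the B cell libraries and by limma-voom, and the mitochondrial count of 1 was 4 without the muscle-high libraries, 0 without diet switch 3, 4 and 7 and by limma-voom, and 2 by DESeq2. In tirzepatide against semaglutide the nuclear count of 22 was 12 with no filter and 6 without the muscle-high libraries. Without those libraries the share of all genes called also fell in each comparison, in diet switch against ND from 14.8% to 10.6%.

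The replicate block gave 27 nuclear calls for diet switch against ND (main 16), and 2, 5 and 1 mitochondrial calls in tirzepatide and diet switch against HFD and tirzepatide against ND (main 1, 3 and 0). Replicate numbers gave no clear pairing of the samples: over 80 same-number pairs the correlation of deviations ran from -0.35 to 0.26 (median 0.03), with 18 above 0.1. Of 40 libraries 11 correlated best with their own number, and a weaker shared effect of the number was not tested.

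With 1 library left out, nuclear counts ran from 0 to 1, 1 to 2, 22 to 30 and 10 to 31 in HFD against ND and in semaglutide, tirzepatide and diet switch against HFD, from 3 to 22, 20 to 29 and 7 to 30 in the same interventions against ND, and from 14 to 24 between the drugs. Mitochondrial counts ran from 0 to 2, 0 to 3 and 1 to 5 against HFD, 0 to 2 for tirzepatide and for diet switch against ND, and stayed 0 in the other 3 comparisons. In the simulated counts most changes of 1.5-fold were not called. The changed genes there were drawn from all levels of expression, and few genes were changed, so the reach for the members can differ.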
